A study of Mus musculus with 24 samples.

Results

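The nuclear genes of the oxidative phosphorylation system were followed across microglia and astrocytes of mouse brain. Members were taken by name among protein-coding genes, as symbols that begin with Ndufa, Ndufb, Ndufc, Ndufs or Ndufv (complex I), Sdha to Sdhd (complex II), Uqcr (complex III), Cox4 to Cox8 (complex IV) or Atp5 (complex V). This gave 111 identifiers, of which 13 were dropped (pseudogenes and 1 non-coding RNA), leaving 98 members out of 53700 identifiers in the microglia tables and 55487 in the astrocyte tables. They were 36 subunits of complex I, 4 of complex II, 8 of complex III, 20 of complex IV (with Ndufa4 and Ndufa4l2, which carry a complex I name), 16 of complex V, 12 assembly factors that share the Nduf or Sdh prefix, and 2 others, Atp5s and a second, overlapping identifier with the symbol Atp5o. The rule reads names only.

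The study sequenced RNA from 24 cell preparations of adult mice, 3 in each of 8 groups. Microglia came from whole brain by douncing and a Percoll spin, astrocytes from cortex by papain digestion, and both were caught on antibody-coated dishes (immunopanning). Within each cell type the groups were saline control, saline Serpine2 knockout, LPS control and LPS Serpine2 knockout. Controls were littermates with at least 1 functional Serpine2 allele, and Serpine2 encodes a secreted inhibitor of serine proteases. LPS, lipopolysaccharide, is a bacterial cell wall component that provokes inflammation. Its dose and timing, and the exons deleted in the knockout, were not given in the sources used here. The labels give both sexes in every group. In replicate order they read male, female, male in both microglia saline groups and female, male, female in both microglia LPS groups. Labelled sex and injection were therefore not balanced in microglia. Nothing in the labels states that the 3 libraries of a group came from separate mice, so that p-values measure the spread between these preparations.

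Oxidative phosphorylation is the mitochondrial pathway that makes most ATP in resting brain. Complexes I and II take electrons from NADH and succinate, complex III passes them through cytochrome c to complex IV, which reduces oxygen, and complex V uses the resulting proton gradient to make ATP. Complexes I, III, IV and V are built from nuclear and mitochondrially encoded subunits, and complex II from nuclear subunits alone. Several subunits come in pairs of genes with tissue-specific use, and activated macrophages are known for a shift from respiration toward glycolysis.

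Promoters of these genes are known for binding sites of NRF1, the ETS factor GABP, YY1 and Sp1. In RefSeq windows that run from 250 bases before to 50 after a gene's start (GRCm38.p6), 78 of the 98 members could be read and were compared with 17492 genes, counting both strands. The palindromic NRF1 motif was present in 21 members (26.9%) and in 7.17% of all genes. The ETS motif CCGGAAG was in 21 members (26.9%) and 12.9% of all genes, and the YY1 motif AAGATGGCG in 8 members (10.3%) and 2.14%. The Sp1 motif GGGCGG was in 37 members (47.4%) and 49.2% of all genes, so that only for Sp1 was the members' share not above that of all genes. These matches are descriptions of letters, not of bound factors. Below, the 150 bases before the start are given for the 3 genes of the ATP synthase c subunit, whose proportions differed between the cell types, for Cox6a1 and Uqcrh, which stood far lower in microglia, and for Ndufb2, which stood higher there. Capitals mark a match to the NRF1 or ETS motif on either strand. The full window of Atp5g3 also holds 1 NRF1 match, which lies outside the bases shown.
Atp5g1 (chr11:96075632-96075781, minus strand): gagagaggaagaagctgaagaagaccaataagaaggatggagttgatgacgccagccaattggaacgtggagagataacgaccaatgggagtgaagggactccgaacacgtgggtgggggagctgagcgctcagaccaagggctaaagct
Atp5g2 (chr15:102671048-102671197, minus strand): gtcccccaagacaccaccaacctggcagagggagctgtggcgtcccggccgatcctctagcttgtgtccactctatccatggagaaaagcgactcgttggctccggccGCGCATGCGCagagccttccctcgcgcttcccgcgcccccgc
Atp5g3 (chr2:73911327-73911476, minus strand): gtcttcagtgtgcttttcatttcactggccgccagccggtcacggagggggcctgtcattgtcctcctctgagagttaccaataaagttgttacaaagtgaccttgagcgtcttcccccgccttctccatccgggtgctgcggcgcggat
Cox6a1 (chr5:115348959-115349108, minus strand): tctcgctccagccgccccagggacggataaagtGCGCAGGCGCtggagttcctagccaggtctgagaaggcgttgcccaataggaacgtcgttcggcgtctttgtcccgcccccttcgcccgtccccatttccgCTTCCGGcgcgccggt
Uqcrh (chr4:116075071-116075220, minus strand): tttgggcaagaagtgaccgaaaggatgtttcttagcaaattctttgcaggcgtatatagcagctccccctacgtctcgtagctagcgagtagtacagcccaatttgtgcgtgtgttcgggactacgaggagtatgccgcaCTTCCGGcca
Ndufb2 (chr6:39592415-39592564, plus strand): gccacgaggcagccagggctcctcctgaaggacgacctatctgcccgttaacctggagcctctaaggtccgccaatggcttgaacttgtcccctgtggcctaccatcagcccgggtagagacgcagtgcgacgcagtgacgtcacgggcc
Atp5g2 and Cox6a1 carry an NRF1 match in this stretch, Cox6a1 and Uqcrh an ETS match, and Atp5g1, Atp5g3 and Ndufb2 neither. Among other genes lower in microglia, Cox6b1 holds an ETS match in its 150 bases, and Cox8a and Atp5b hold neither motif there. The full window of Cox8a has 2 ETS matches. Whether matches go with the direction of a gene was not tested.

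Microglia libraries held 4506142 to 13621776 counts in genes, of which 16375 to 48132 fell in members. Astrocyte libraries held 10944765 to 25135252, with 36738 to 78723 in members. The cell types differed in more than their genes. Reads outside annotated genes made up 56.2% to 72.7% of microglia libraries and 15.9% to 21.1% of astrocyte libraries, and mitochondrially encoded genes took 2.45% to 6.0% and 32.3% to 45.0% of gene counts. Marker genes fixed as lists showed mixed preparations. In microglia libraries the 12 neuron markers summed to 2040 to 2916 CPM (counts scaled to library size, with TMM factors), the 12 microglia markers to 1013 to 3539 and the 12 astrocyte markers to 625 to 942. Astrocyte libraries held 38111 to 52340 CPM of astrocyte markers, 4440 to 11145 of 10 oligodendrocyte markers and 774 to 1511 of neuron markers. Levels below are therefore those of preparations, in which fewer cells of a type and less RNA per cell cannot be told apart. Serpine2 was lower in all 12 knockout libraries than in the controls of the same cell type and injection. The sex-linked transcripts went against the label in 1 of the 24 libraries, microglia LPS control 1, and the LPS results in microglia are also given without it.

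**Figure D1:**
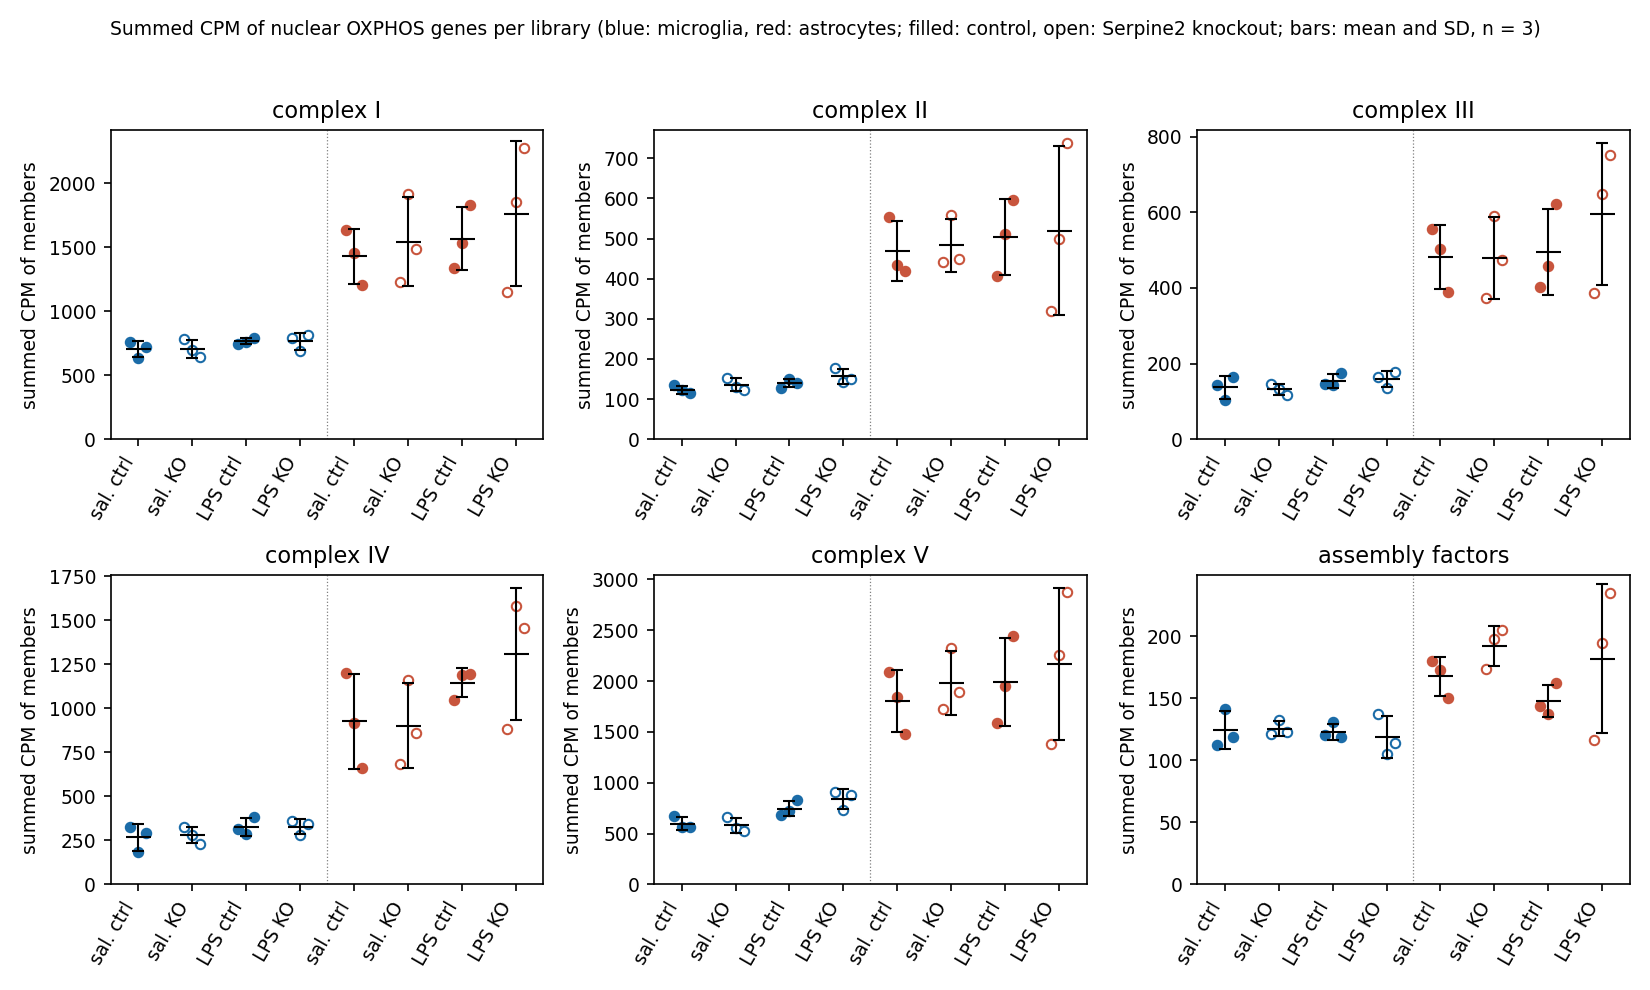
Summed CPM of the members of each complex, 1 point per library, with the mean and SD of 3 libraries per group (blue, microglia; red, astrocytes; filled, control; open, Serpine2 knockout). The astrocyte libraries lie above the microglia libraries in complexes I to V, and the points of the astrocyte LPS knockout group are the most spread.

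In CPM with TMM factors, members were lower in microglia than in astrocytes in every respiratory complex. All 98 summed to 2148, 1751 and 1977 CPM in the 3 microglia saline control libraries (1959 ± 199, SD, n = 3) and to 6225, 5339 and 4317 in the astrocyte ones (5294 ± 954, n = 3). No microglia library reached the lowest astrocyte library, and the astrocyte mean was 2.70 times the microglia mean. That ratio depends on the scaling. Without TMM factors, members held a median of 0.343% of gene counts in microglia libraries (0.269% to 0.406%) and 0.264% in astrocyte libraries (0.220% to 0.523%). Of nuclear protein-coding counts they held 0.415% (0.351% to 0.495%) and 0.683% (0.505% to 1.01%). By gene, 93 members could be tested between the saline controls, and 65 were lower and 3 higher in microglia by edgeR at an adjusted p under 0.05. Of all 24607 genes tested, 23.6% were lower and 32.1% higher on the same terms (55.7% in either direction). The 3 higher became 5 with RLE factors, 5 with nuclear library sizes, 7 with DESeq2, and 1 without microglia saline control 1 or 2 or astrocyte saline control 3. The median log2 fold change of the members, microglia minus astrocytes, was −1.33, beside 0.38 for all genes, a distance of −1.71. Both medians depend on how the libraries were scaled, which moves all genes alike. With RLE factors in place of TMM they were −1.02 and 0.68, and with library sizes from nuclear protein-coding genes −1.08 and 0.61. The distance between them depends on which genes are tested, and was −1.40 with no filter on low counts and −1.47 with a minimum count of 50. Among protein-coding genes that are no members, 29.4% of the 15177 with at least 1000 bases of exon were called lower, and 27.5% of the 386 shorter ones. Of the members, 67.6% of the 71 longer genes and 77.3% of the 22 shorter ones were. All genes include non-coding ones, unlike the members. The other protein-coding genes had a median log2 fold change of 0.0021 when longer and 0.33 when shorter. Those of the members were −1.21 and −1.77. In LPS controls 66 members were lower and 2 higher, against 24.2% and 32.6% of all genes, and 63 were called lower under both injections (96.9% of the saline list, 95.5% of the LPS list). Of all genes called lower, 85.01% of the saline list and 82.8% of the LPS list were in both. Leaving out LPS control 1 of the microglia left 60 members called in either direction, in place of 68 (56.8% of all genes), with a median of −1.32. Over all 12 libraries of each cell type, 52 of 93 members had every microglia value below every astrocyte value and 1 had the reverse, beside 14.0% and 19.1% of all genes, and the numbers of members were the same without that library. Cell type went together here with brain region, dissociation method, the share of reads outside genes and the set of identifiers counted. These cannot be told apart. Microglia were counted on 53700 identifiers and astrocytes on 55487, with 52404 in both. Whether the gene models of the members differed between the 2 sets was not tested.

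**Figure D2:**
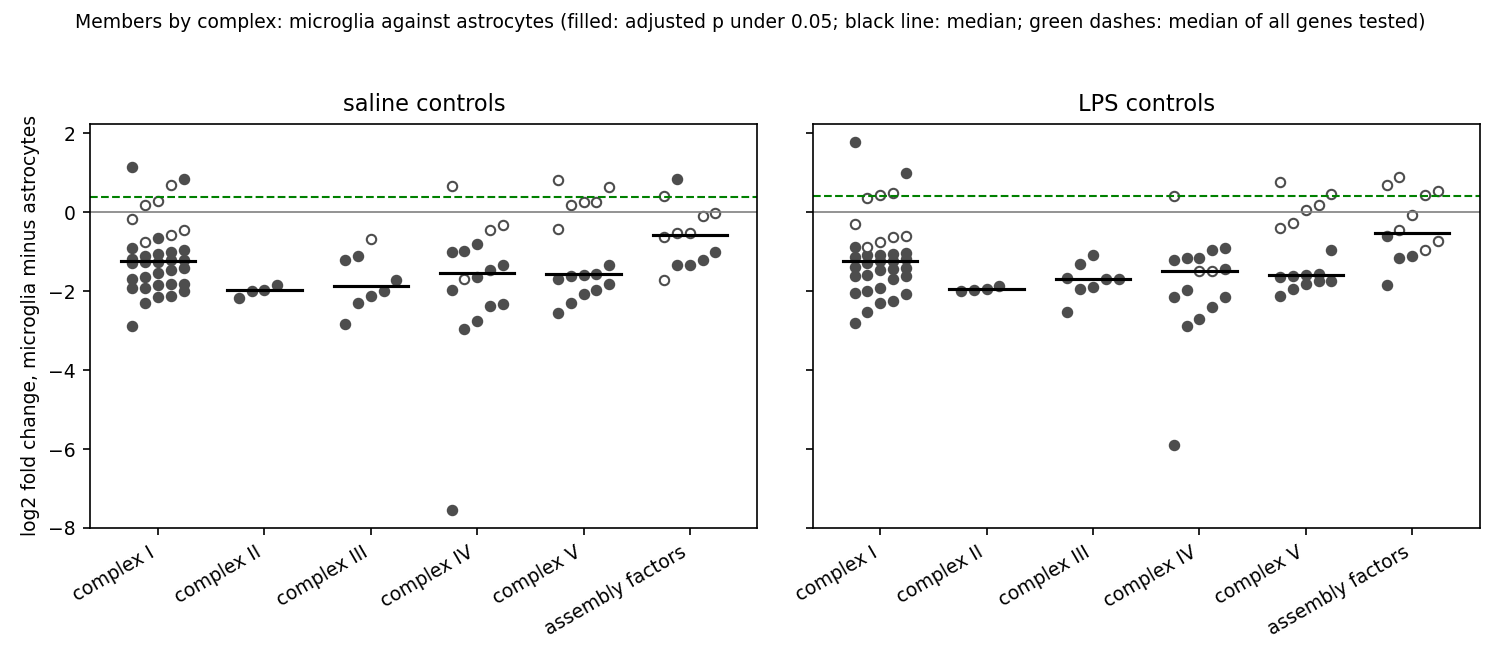
Log2 fold change of each tested member, microglia minus astrocytes, by complex, in saline controls (left) and LPS controls (right). Filled points passed an adjusted p under 0.05, black lines are medians (−1.98 for complex II and −0.57 for assembly factors in saline), and green dashes mark the median of all genes tested, 0.38 and 0.40. The lowest point of complex IV is Cox4i2, which had 0 or nearly 0 counts in microglia, so that its fitted value is no measure of size.

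Complex I, the NADH dehydrogenase, had members on both sides. Of its 36 subunits 27 were lower and 2 higher in microglia saline controls, with a median of −1.24. Ndufv3, a small accessory subunit of the NADH-binding module, read 17.7, 17.4 and 14.5 CPM in microglia and 83.2, 72.4 and 55.1 in astrocytes. That was a log2 difference of −2.15 (SE 0.26, edgeR adjusted p 1.59e-07). Ndufb2, an accessory subunit of the membrane arm, went the other way, at 27.2, 24.1 and 17.4 CPM in microglia and 8.73, 12.0 and 8.85 in astrocytes (log2 1.15, SE 0.30, adjusted p 0.00243). It is the member for which all 12 microglia values lay above all 12 astrocyte values. Its exons span 5628 bases on chromosome 6 (39592574 to 39603382, plus strand, GRCm38), and 7.94% of them overlap other genes, Braf among them. Ndufab1, the mitochondrial acyl carrier protein, was also higher, at 28.3 ± 7.37 against 15.1 ± 3.45 CPM (SD, n = 3 each; log2 0.85, SE 0.32, adjusted p 0.0270). It lost the call without any 1 of 4 saline control libraries, microglia 1 or 2 or astrocyte 2 or 3 (0.72 to 0.78, adjusted p 0.0783 to 0.0969). Ndufb2 kept it without each of the 6 (1.01 to 1.34). Both genes have long exons compared with their complex, and whether reads from unspliced RNA enter their counts was not tested. Ndufs3, in the arm that takes up electrons, had a mean in the same direction without passing (0.69, SE 0.32, adjusted p 0.0697).

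Complex II, succinate dehydrogenase, which also belongs to the citric acid cycle, was lower in microglia in all 4 subunits and by a similar amount in each, from −2.17 to −1.84. Sdha, the flavoprotein that oxidises succinate, read 74.8, 74.9 and 56.3 CPM in microglia and 290, 239 and 244 in astrocytes (log2 −1.97, SE 0.23, edgeR adjusted p 1.36e-07). Sdhc, one of the membrane anchors, read 20.7, 17.4 and 17.3 against 114, 64.8 and 60.9 CPM (−2.17, SE 0.28, adjusted p 6.56e-07). In both genes every microglia value lay below every astrocyte value. The summed CPM of the 4 was 124 ± 9.97 in microglia and 469 ± 73.6 in astrocytes (SD, n = 3 each), a ratio of 3.79, against 2.03 for complex I.

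Complex III, the cytochrome bc1 complex, was lower in 7 of 8 members, with a median of −1.86. Uqcrh, the hinge protein that contacts cytochrome c, read 19.2, 17.5 and 12.9 CPM in microglia and 143, 108 and 90.0 in astrocytes, 7.18-fold lower in microglia (log2 −2.84, SE 0.33, edgeR adjusted p 8.16e-08). The core protein Uqcrc2 stood at 29.7 ± 5.07 CPM in microglia and 93.9 ± 3.77 in astrocytes (SD, n = 3 each; −1.72, SE 0.20, adjusted p 1.24e-07). Uqcr10 was highest of its complex per kilobase of exon in both cell types, at 31.2 and 131 CPM per kb as means of 12 libraries, and Uqcrb lowest, at 3.26 and 7.37. The order within the complex was thus held at both ends while the level moved.

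Complex IV, cytochrome c oxidase, held 16 tested members, of which 12 were lower in microglia and 0 higher, with a median of −1.55. Cox6a1, the form of subunit 6a used outside muscle, read 50.8, 15.6 and 34.0 CPM in microglia and 356, 233 and 157 in astrocytes (log2 −2.96, SE 0.38, edgeR adjusted p 4.87e-07). Cox8a, the ubiquitous subunit 8, read 27.9, 11.8 and 20.5 against 187, 125 and 81.2 CPM (−2.77, SE 0.35, adjusted p 3.00e-07). Cox6b1, which faces cytochrome c, stood at 9.70 ± 3.39 against 46.7 ± 9.44 CPM (SD, n = 3 each; −2.33, SE 0.32, adjusted p 1.27e-06). All 3 were lower in the microglia library of saline control 2 than in the other 2 microglia saline control libraries, and none of their microglia values reached an astrocyte value. Cox6a1 was the most abundant member of its complex per kilobase in astrocytes, at 384 CPM per kb over 12 libraries, whereas in microglia that place went to Cox4i1, at 62.1.

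Of the 16 members of complex V, ATP synthase, 10 were lower in microglia and 0 higher, with a median of −1.57. Atp5a1, the alpha subunit of the catalytic head, read 106, 86.0 and 99.1 CPM in microglia and 565, 437 and 373 in astrocytes. Its log2 difference of −2.30 (SE 0.24, edgeR adjusted p 1.69e-08) had the smallest p of all members. Atp5b, the catalytic beta subunit, was at 182 ± 38.6 against 621 ± 112 CPM (SD, n = 3 each; −1.83, SE 0.27, adjusted p 3.18e-06). Of the 6 that did not pass, 5 had a higher mean in microglia, Atp5l (0.63, SE 0.37), Atp5g2 (0.81, SE 0.52), Atp5g1 (0.24, SE 0.29), Atp5h (0.25, SE 0.30) and Atp5o (0.17, SE 0.45), with adjusted p-values from 0.146 to 0.765. Atp5o overlaps other genes over 47.9% of its exon bases, and its value is uncertain for that reason. The 12 assembly factors, which build the complexes but are not part of them, had a smaller shift, with 4 lower, 1 higher (Ndufaf5, 0.85, SE 0.36, adjusted p 0.0467) and a median of −0.57. Ndufaf5 was not called between LPS controls (0.69, adjusted p 0.106), and in saline it kept its call only without microglia library 3, of the 6 left out in turn.

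Atp5g1, Atp5g2 and Atp5g3, on separate chromosomes, encode the same mature c subunit of the ATP synthase ring and differ in the import sequence that is cut off. Atp5g3 read 34.3, 34.3 and 18.2 CPM in microglia saline controls and 132, 119 and 101 in astrocyte ones (log2 −2.08, SE 0.33, edgeR adjusted p 1.07e-05). Atp5g1 read 36.4, 25.2 and 34.0 against 30.8, 31.9 and 14.5 CPM, with overlapping groups. Per kilobase of exon, Atp5g3 made up 43.7% to 76.9% of the 3 genes' total in the 12 microglia libraries (median 62.7%) and 82.6% to 92.8% in the 12 astrocyte libraries (median 88.3%). The ranges of Atp5g1 (15.1% to 36.3% and 5.90% to 10.7%) and Atp5g2 (8.02% to 20.0% and 1.14% to 6.70%) did not overlap between the cell types either. Neither injection nor genotype moved the shares as far. In microglia, Atp5g3 averaged 56.3% ± 11.6 in saline controls, 56.6% ± 4.46 in saline knockouts, 60.2% ± 7.40 in LPS controls (51.7%, 64.8% and 64.2%) and 68.7% ± 7.18 in LPS knockouts (SD, n = 3 each). The ranges of LPS and saline knockouts did not overlap, while those of LPS and saline controls did, with and without LPS control 1. Atp5g2 shares 38.4% of its 50-base stretches with other annotated genes, such as pseudogenes, and Atp5g1 11.1%, so that their reads may be lost or split, while Atp5g3 shares none. The shares also depend on annotated exon length, and Atp5g1 holds 4881 such stretches, beside 2224 in Atp5g3. Whether reads from unspliced RNA enter these counts, or the gene models counted differed between the cell types, was not tested.

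**Figure D3:**
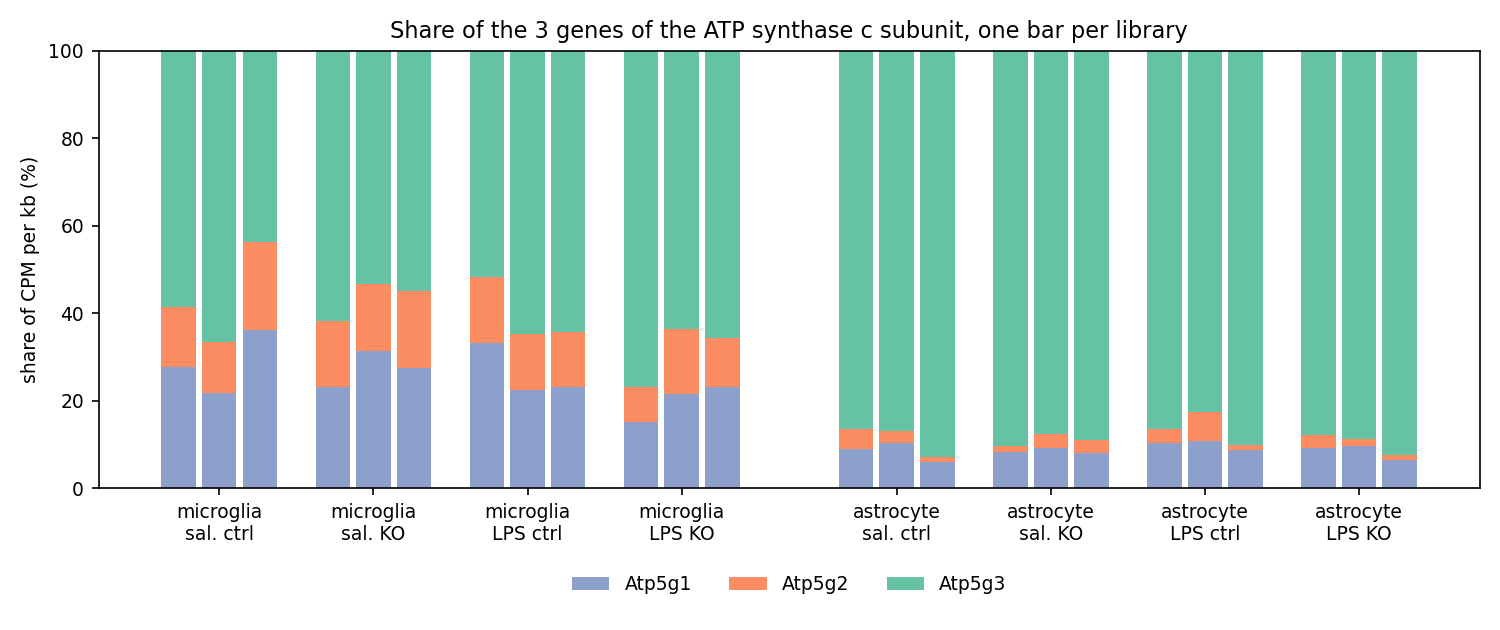
Share of the summed CPM per kb of Atp5g1, Atp5g2 and Atp5g3 that each gene holds, 1 bar per library, 3 libraries per group (sal., saline; ctrl, control; KO, knockout). Atp5g3 takes 43.7% to 76.9% of the bar in microglia and 82.6% to 92.8% in astrocytes.

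Several complex IV subunits come in more than one form, and most of the alternative forms held small shares. Cox4i2, the form of subunit 4 known from lung and from cells around vessels, had 0 counts in all 3 microglia saline control libraries and 6, 28 and 22 in the astrocyte ones. Set against 3 counts over the microglia group, its mean of 1.91 CPM was at least 23.8-fold higher in astrocytes. Its share of Cox4i1 and Cox4i2 together was at most 0.75% per kilobase in microglia and 0.35% to 4.94% in astrocytes. Markers of mural cells, which surround vessels, summed to 20.0 to 39.8 CPM in microglia libraries and 192 to 306 in astrocyte libraries, and their part in the Cox4i2 counts was not tested. Cox6a2, the muscle form of subunit 6a, made up 0.83% to 4.07% of its pair in microglia and 0.04% to 1.47% in astrocytes. Cox7a1, another muscle form, took 1.22% to 6.45% and 0.60% to 6.58%, and Cox7b2, the testis form of subunit 7b, up to 5.53% and 8.51%. Cox7a2l, a relative of subunit 7a known for joining complexes III and IV, was no minor form, at 31.2% to 38.9% of the 3 Cox7a genes in microglia and 25.1% to 39.2% in astrocytes, with overlapping ranges. Cox8b, Cox8c and Ndufa4l2 were too low to test in either cell type.

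Partner genes outside the naming rule are read against the 23.6% of all genes called lower and 32.1% called higher. Of 17 citric acid cycle genes 15 were lower in microglia saline controls and 0 higher, with a median log2 difference of −1.44. Of 33 tested assembly factors and insertases with other names 9 were lower, a share near that of all genes, and 6 higher (median −0.37), and of 16 regulators of respiratory genes 8 were lower and 2 higher (−0.52). Genes for mitochondrial mass and transport were lower in 13 of 22 (−0.82). The mitochondrially encoded subunits were further apart than any of these lists. Of the 13 found, 7 could be tested, all 7 were lower in microglia and their median was −5.62. The 13 together made up 796 to 2205 CPM in microglia libraries and 38590 to 86142 in astrocyte libraries. Those not tested fell below the filter on low counts, so that these sums rest mainly on the 7. Why their counts were low was not tested. The preparations also differed in dissociation, and the part of that in the mitochondrial values was not tested.

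LPS against saline gave no member called by edgeR in either cell type, and 3 called by DESeq2 in each. Shares of all genes called are by edgeR with the main settings throughout, so that counts by DESeq2 or under other settings stand without one. In microglia, averaged over both genotypes, 0 of 91 tested members passed by edgeR, beside 2.7% of all 22230 genes, and 13 members (14.3%) had an unadjusted p under 0.05, beside 12.8% of all genes. The 3 called by DESeq2 were Atp5a1, Atp5b and Atp5e. The members' median log2 fold change was 0.13, with 61 of 91 above 0, and that of all genes was −0.03, with 10080 of 22230 above 0. No member had all 6 LPS libraries above or all 6 below the 6 saline libraries, beside 2.15% and 0.378% of all genes. The ATP synthase genes had the smallest p-values. Atp5b read 225.4, 168.2 and 152.0 CPM after saline and 217.0, 244.8 and 290.4 after LPS in controls. In knockouts it read 226.1, 172.7 and 155.3 after saline and 322.6, 275.4 and 328.0 after LPS. Its lowest LPS value lay among the highest saline values, and the fitted difference was 0.57 (SE 0.15, edgeR adjusted p 0.0616), with adjusted p-values from 0.00756 to 0.200 over 19 alternatives. Atp5a1 gave 0.54 (SE 0.15, adjusted p 0.0684, 0.0124 to 0.180 over alternatives). Atp5e, the small epsilon subunit of the head, averaged 8.50 ± 3.15 CPM after saline and 19.3 ± 5.88 after LPS in controls, and 11.7 ± 4.08 and 16.5 ± 3.69 in knockouts (SD, n = 3 each), a mean difference of 0.81 that did not pass (SE 0.24, adjusted p 0.108). Of the 16 complex V members 5 had an unadjusted p under 0.05, and 13 had a mean above 0. Without LPS control 1 edgeR again called 0 members and the median was 0.14. Atp5b was then at 0.64 (edgeR adjusted p 0.0596), Atp5a1 at 0.61 (0.0631) and Atp5e at 0.86 (0.142). With that library out, Atp5a1, Atp5b and Atp5g3 had all 5 LPS values above the 6 saline values, beside 2.68% of all genes, and 0 members had them all below, beside 0.585%. The lowest p below 0 belonged to Ndufb2 (−0.35, SE 0.16, adjusted p 0.381), Sdhaf3 (−0.48, SE 0.27, 0.486) and Ndufaf4 (−0.37, SE 0.23, 0.545), at −0.30, −0.43 and −0.38 without LPS control 1, of which the latter pair are assembly factors of complexes II and I. Neutrophil markers ran from 267 to 1631 CPM over the microglia libraries, and their part in these values was not tested.

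**Figure D4:**
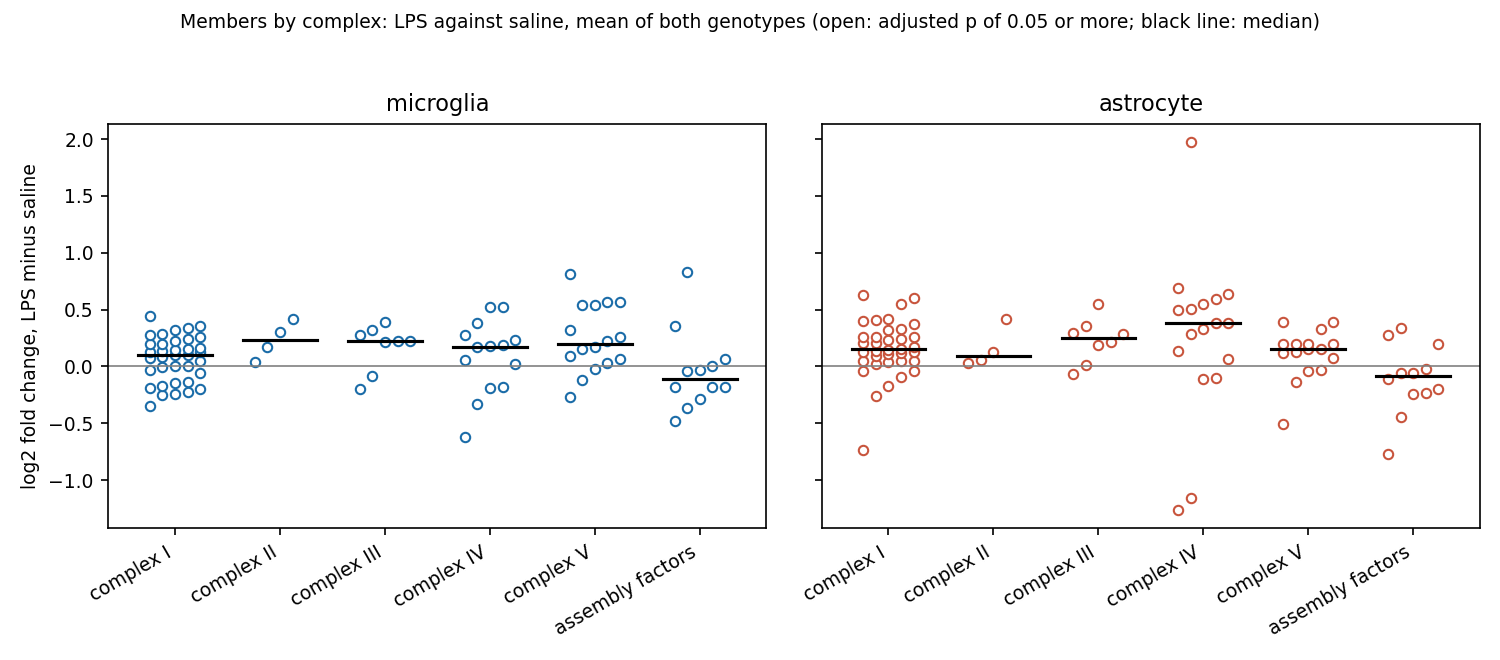
Log2 fold change of each tested member, LPS minus saline averaged over both genotypes, by complex, in microglia (left) and astrocytes (right). All points are open because none passed an adjusted p under 0.05 by edgeR. Black lines are medians, which for complex IV stand at 0.17 in microglia and 0.38 in astrocytes, and the highest point in astrocytes is Cox6a2.

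In astrocytes by edgeR 0 of 94 tested members passed, beside 6.9% of all 18188 genes, and 12 (12.8%) had an unadjusted p under 0.05, beside 20.1% of all genes. DESeq2 called Cox6b1, Cox6a2 and Atp5s. The median of the members was 0.15, with 69 of 94 above 0, and that of all genes was 0.01, with 9256 of 18188 above 0. No member had LPS libraries all above or all below the saline ones, beside 2.68% and 1.42% of all genes. Of 17 complex IV members 13 had a mean above 0, the median was 0.38 and 7 had an unadjusted p under 0.05. Cox6b1 read 53.9, 50.1 and 36.0 CPM after saline and 71.2, 82.5 and 75.6 after LPS in controls. In knockouts it read 42.7, 65.2 and 54.4 after saline and 47.3, 91.3 and 113 after LPS. One LPS library, knockout 1, lay within the saline range and the other 5 above it. The fitted difference of 0.69 (SE 0.20, edgeR adjusted p 0.0503) sat at the threshold, with adjusted p-values from 0.00471 to 0.138 over 20 alternatives. Ndufa3 (0.55, SE 0.19, adjusted p 0.103) and Cox6a2 (1.98, SE 0.72, 0.116) followed, the latter on 1 to 40 counts per library. Below 0, Atp5s, a factor that shares the Atp5 prefix, read 9.26, 18.0 and 14.4 CPM in saline controls and 7.99, 12.2 and 11.3 in LPS controls. In knockouts it read 14.3, 14.8 and 18.3 after saline and 2.53, 6.33 and 7.42 after LPS, where the groups did not overlap. Its mean difference was −0.97 (SE 0.30, adjusted p 0.0650) and passed without LPS knockout 3 (−1.10, adjusted p 0.0411). Ndufb2 was at −0.74 (SE 0.30, adjusted p 0.167) and Sdhaf3 at −0.77 (SE 0.35, 0.230).

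Within a genotype the LPS results were the same in number. By edgeR 0 members passed in microglia controls (0.576% of all genes did) and 0 in microglia knockouts (1.14%). At an unadjusted p under 0.05 there were 3 members in controls, beside 7.28% of all genes, and 7 in knockouts, beside 7.61%. In astrocytes 0 passed in controls (0.929% of all genes) and 0 in knockouts (1.56%), with 3 members (12.1% of all genes) and 7 members (13.7%) at an unadjusted p under 0.05. DESeq2 called Atp5a1 in microglia knockouts, Atp5s in astrocyte knockouts and 0 in the controls of either cell type. Without microglia LPS control 1 the microglia controls again gave 0, with a median of 0.14 in place of 0.07. The LPS response was also set between the cell types, where 0 of 93 members passed by edgeR, beside 2.6% of all genes. Cox6a2 came nearest, at −2.27 (microglia minus astrocytes, SE 0.70, adjusted p 0.0869), was the 1 member with an unadjusted p under 0.05 (14.6% of all genes) and the 1 called by DESeq2. It also passed by edgeR without astrocyte LPS control 3 (−2.48, adjusted p 0.0319), and without microglia LPS control 1 there were 0 members called.

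Serpine2 genotype was not followed by a called change of any member. In microglia 0 of 91 members passed by edgeR in saline (0% of all genes), in LPS (0%) and over both injections (0.0045%), with 0, 0 and 1 members at an unadjusted p under 0.05, beside 1.58%, 1.51% and 2.02% of all genes. In astrocytes 0 of 94 passed in the same comparisons (0.0055% of all genes in each), with 1 member in each at an unadjusted p under 0.05, beside 2.75%, 2.73% and 2.97% of all genes. DESeq2 called 0 members in all 6. Set between the genotypes, the LPS response gave 0 members in either cell type by both tools (0% of all genes by edgeR). At an unadjusted p under 0.05 there were 0 members, beside 1.13% of all genes in microglia and 2.6% in astrocytes. Without microglia LPS control 1 the counts called stayed at 0 in LPS, over both injections and for the LPS response, with medians of 0.05, 0.02 and −0.01 in place of 0.06, 0.02 and 0.04. Over both injections the microglia median was 0.02, beside −0.01 for all genes, and the members with the smallest p were Cox6a2 (−0.67, SE 0.31) and Ndufa2 (0.56, SE 0.28), a complex I subunit that after saline read 4.38, 1.18 and 3.03 CPM in controls and 7.24, 4.14 and 4.07 in knockouts, with overlapping groups. In astrocytes 72 of 94 members had the higher mean in knockouts, beside 9133 of 18188 genes, with a median of 0.14, beside 0.0016 for all genes, that ran from 0.0019 to 0.27 when 1 library was left out. Atp5mpl, a small subunit of the ATP synthase membrane part, had the smallest p (0.46, SE 0.22, edgeR adjusted p 1.00), at 34.7, 36.9 and 22.0 CPM in controls and 36.7, 61.3 and 51.2 in knockouts after saline, again overlapping.

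The members moved together from library to library within a group. In astrocytes the median deviation of the 94 tested members from their 12-library mean, in log2 CPM, ran from −0.41 in LPS knockout 1, where 6 members lay above their mean, to 0.54 in LPS knockout 3, where 83 did. These are libraries of 1 group, and their difference exceeds the group medians of LPS and of genotype given above. The saline controls spread in the same way, from −0.39 in library 3 to 0.15 in library 1. In microglia the medians ran from −0.23 to 0.23. Complexes I to V shared the pattern in astrocytes. In LPS knockout 1 the complex medians ran from −0.52 for complex II to −0.20 for complex IV, and in LPS knockout 3 from 0.45 for complex II to 0.58 for complex IV. Other protein-coding genes with under 1000 bases of exon had medians from −0.35 to 0.37 over the astrocyte libraries and from −0.40 to 0.36 over the microglia libraries, while the median of all tested genes stayed within −0.01 to 0.05 in both. The mitochondrially encoded subunits did not run in parallel, at 0.01 in LPS knockout 1, 0.69 in LPS knockout 2 and −0.74 in LPS knockout 3. What the libraries share was not tested. With LPS control 3 and LPS knockout 3 both left out, an alternative chosen after seeing the data, the astrocyte LPS median of the members was −0.04 in place of 0.15.

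**Figure D5:**
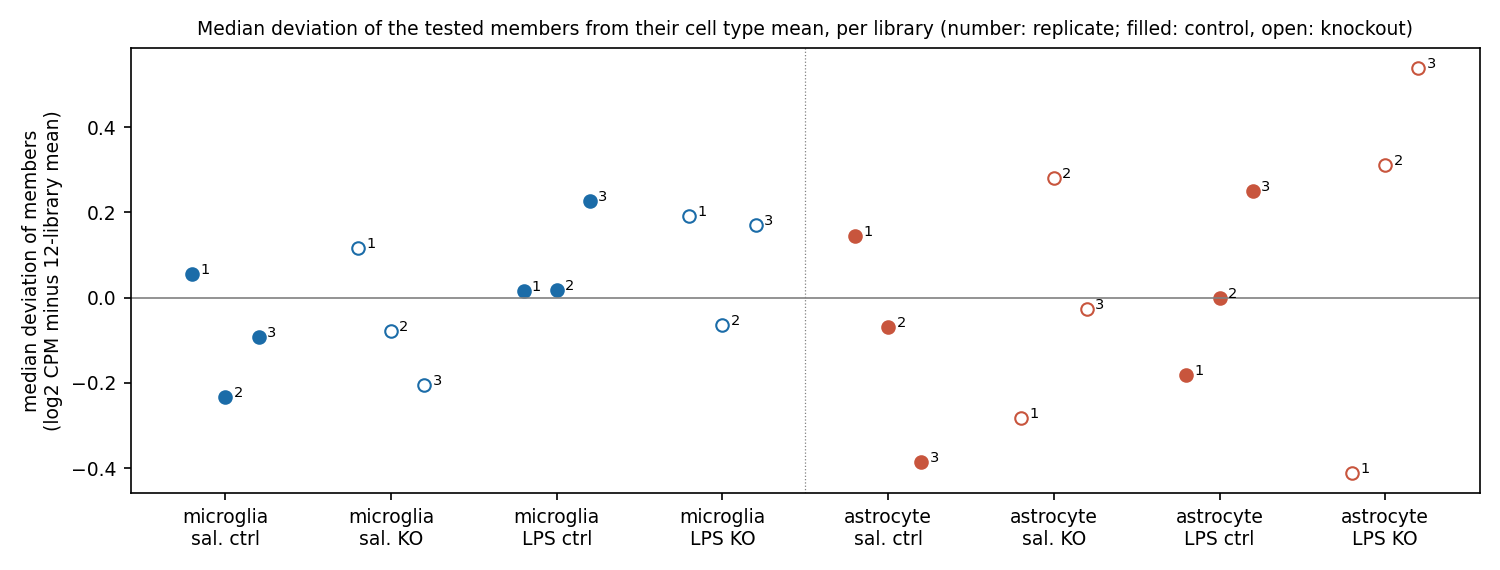
Median deviation of the tested members from their mean over the 12 libraries of a cell type, in log2 CPM, 1 point per library with its replicate number (filled, control; open, knockout). The astrocyte points run from −0.41 to 0.54, both in the LPS knockout group, and the microglia points from −0.23 to 0.23.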

How the data were processed

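The authors deposited whole-number read counts per Ensembl identifier for each of the 24 libraries. The aligner was STAR 2.6.0c and the counter HTSeq, per the submitters' processing notes (HTSeq version, strand setting and annotation not given in the sources used here). The notes name GRCm38 and GRCm39 without a role. Gene models are those of GENCODE M21 on GRCm38. Genes were filtered with filterByExpr (minimum count 10, minimum total 15), scaled by TMM and tested two-sided with edgeR 4.0.16 quasi-likelihood under R 4.3.3, on 12 libraries within a cell type (1 mean per group) and on all 24 between cell types, with Benjamini-Hochberg adjustment over all genes. Of the members, 91 were tested in microglia, 94 in astrocytes and 93 between cell types. A gene was called at an adjusted p under 0.05. CPM use TMM factors over all 24 libraries, and levels of different genes are compared only per kilobase of exon. SE were computed as the absolute log2 fold change over the square root of the quasi-likelihood F statistic. SD belong to the 3 libraries of a group. On simulated counts a log2 change of 1 was recovered for 52.2% of changed genes in microglia (LPS minus saline, 21882 genes) and 26.9% in astrocytes (17513 genes). Members and lists were chosen with earlier results of these data known. Members named are the called ones with the smallest p (at most 10 per direction) or, with fewer than 3 called, the 3 per direction with the smallest p, together with genes of isoform pairs and the highest and lowest per complex. Ndufs3, the 5 complex V genes with higher means in microglia, Ndufaf5 in LPS and the genes named for one alternative were singled out after their values were seen. Alternatives were RLE factors, DESeq2 1.42.0, no filter, a minimum count of 50, nuclear protein-coding library sizes, sex from the labels, a replicate block, fits restricted to the compared groups, each library left out, and, added after seeing the data, LPS libraries 3 of both astrocyte genotypes left out.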

Additional observations from a re-analysis of the deposited data

How the results depend on the processing

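In this section, counts of members called under other settings are given without the share of all genes called there. They are no result about the members. Between the cell types, the number of members called ranged from 59 to 65 when 1 saline control library was left out and from 60 to 68 for LPS controls. The 3 members called higher in microglia in saline became 5 with RLE factors, 7 with DESeq2 and 5 with nuclear library sizes, and 1 to 4 with a library left out. The 2 in LPS became 4 and 7 with RLE factors and DESeq2, and 2 to 4 with a library left out. The LPS comparisons with 0 called members gained some under other settings. In microglia, averaged over genotypes, DESeq2 called 3, no filter on low counts 5 and a minimum count of 50 gave 2, and leaving out 1 library gave 0 to 3 (3 without saline control 1 or saline knockout 1). In microglia controls no filter gave 1, and in microglia knockouts DESeq2 gave 1, no filter 1 and single libraries left out 0 to 1. In astrocytes, averaged over genotypes, RLE factors gave 1, DESeq2 3, no filter 2, a minimum count of 50 gave 1, sex from the labels 1, LPS libraries 3 of both genotypes left out 1 (chosen after seeing the data), and single libraries left out 0 to 3 (3 without LPS knockout 1, 1 without LPS knockout 3). In astrocyte knockouts DESeq2 and no filter gave 1 each. The difference between cell types in the LPS response gave 1 with DESeq2 and 0 to 1 with a library left out. The median genotype effect on members in saline microglia ran from −0.051 to 0.12 with a library left out (0.12 without saline control 1). In the saline genotype comparisons, none of them called, Ndufb7 in microglia ran from −0.64 to 0.14 (without saline control 3), and in astrocytes Cox6a1 ran from −0.56 to 0.016 and Cox6c from −0.45 to 0.22 (both without saline control 1). The causes were not tested, beyond the fewer genes or samples that some settings leave.

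The labels give groups the same replicate numbers. Correlations of same-numbered control and knockout libraries ran from −0.17 to 0.44 and were not all over 0.1, so the numbers were not taken to pair the samples. With a replicate block 2 members were called for LPS in microglia and 2 in astrocytes averaged over genotypes, and 1 in astrocyte knockouts, in place of 0 each, and no member in a genotype comparison.

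Depth limits the lowest members. Cox4i2, Cox6a2, Cox7a1 and Sdhaf1 rest on 0 to 48 counts per library. In all, 22 members share over 10% of their 50-base stretches with other genes, 3 of them over 50%. The bound given for Cox4i2 covers counting error only, and molecular identifiers are not named in the labels.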
